A study of Mus musculus with 16 samples.

Results

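Matrix metalloproteinases (Mmp genes), the tissue inhibitors of metalloproteinases (Timp genes) and the Adamts proteases were followed in cultured slices of adult mouse heart. The members were taken by name, as the protein-coding genes whose symbols begin with Mmp or Adamts and a number, or are Timp1 to Timp4, and that had at least 10 counts in total. Of the 46 genes whose symbols fit, Mmp1a was left out as a polymorphic pseudogene with 8 counts, and Adamts18, Mmp20 and Mmp7 had 2, 0 and 0 counts. The remaining 42 genes, out of 55487 genes in the count table and 24971 with at least 10 counts, are 20 Mmp, 4 Timp and 18 Adamts genes. A mean of at least 1 CPM (counts scaled to library size, after TMM normalization) was reached by 31 of them and missed by 11.

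The 16 libraries form 4 groups of 4 from male mice aged 8 weeks of the C57Bl6/J strain. They are Swhtr null slices kept 7 days in 3% oxygen followed by 7 days in 21% oxygen (treated), Swhtr null slices kept all 14 days in 21% oxygen (untreated), and WT slices in each of the same ways. Swhtr is a long noncoding RNA beside the cardiac transcription factor gene Nkx2-5, and Swhtr null mice carry a transcriptional stop signal in it on both alleles from conception, in all cells. The line came from hybrid C57Bl6/129S6 embryonic stem cells, was backcrossed to C57BL6J and was bred from homozygous pairs, so WT mice were not littermates. The slices of a genotype came from 4 mice and 2 litters. Which library came from which mouse is not stated, so the 8 libraries of a genotype include repeated mice that the tests take as independent. The libraries hold 17830351 to 29941903 counts each. No gene of the count table could be matched by name to Swhtr, so its level could not be used to check the genotype labels.

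Matrix metalloproteinases are zinc enzymes that are made as inactive proenzymes and cut collagens, elastin, proteoglycans and other secreted proteins. Most are secreted, while the membrane-type enzymes stay on the cell surface, where Mmp14 activates the Mmp2 proenzyme with the help of Timp2. Timps bind the active sites of these enzymes, and Timp3 also blocks several Adamts proteases, which trim procollagens or cut the large proteoglycans of the matrix. In the heart these families are best known for their part in scar formation and remodelling after injury.

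Heart muscle markers were low in all groups of this heart tissue, and the 10 genes of that list together averaged 51.0 CPM in treated Swhtr null (highest library 104), 8.88 in untreated Swhtr null (12.2), 25.1 in treated WT (54.9) and 11.1 CPM in untreated WT slices (21.6). Fibroblast markers summed to 22988 to 33516 CPM and macrophage markers to 4225 to 13629 CPM over the 16 libraries. Of 12 neutrophil markers, S100a9, Ly6g, Ngp and Retnlg were under 10 counts in total, and the remaining 8 summed to 2.58 to 13.3 CPM.

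Mmp12, the macrophage elastase, had the highest mean level of the members in each group, by CPM and per kilobase. It averaged 5043 ± 990 CPM in treated Swhtr null slices, 6739 ± 889 CPM in untreated Swhtr null slices, 5505 ± 490 CPM in treated WT slices and 5547 ± 1502 CPM in untreated WT slices (SD, n = 4 each). It ranked 14 among all 24971 genes by CPM and made up 58.7% to 85.1% of the summed Mmp CPM of a library. Per kilobase of merged exons, the scale on which genes can be compared, Mmp12 averaged 789 CPM per kb over all libraries and Timp1 518 CPM per kb. In single libraries the order could turn, as Timp1 was above Mmp12 per kb in library 2 of every group but treated WT. Timp2, the next inhibitor, was at 248 CPM per kb, and Mmp3, stromelysin-1, was at 199 CPM per kb.

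**Figure D1:**
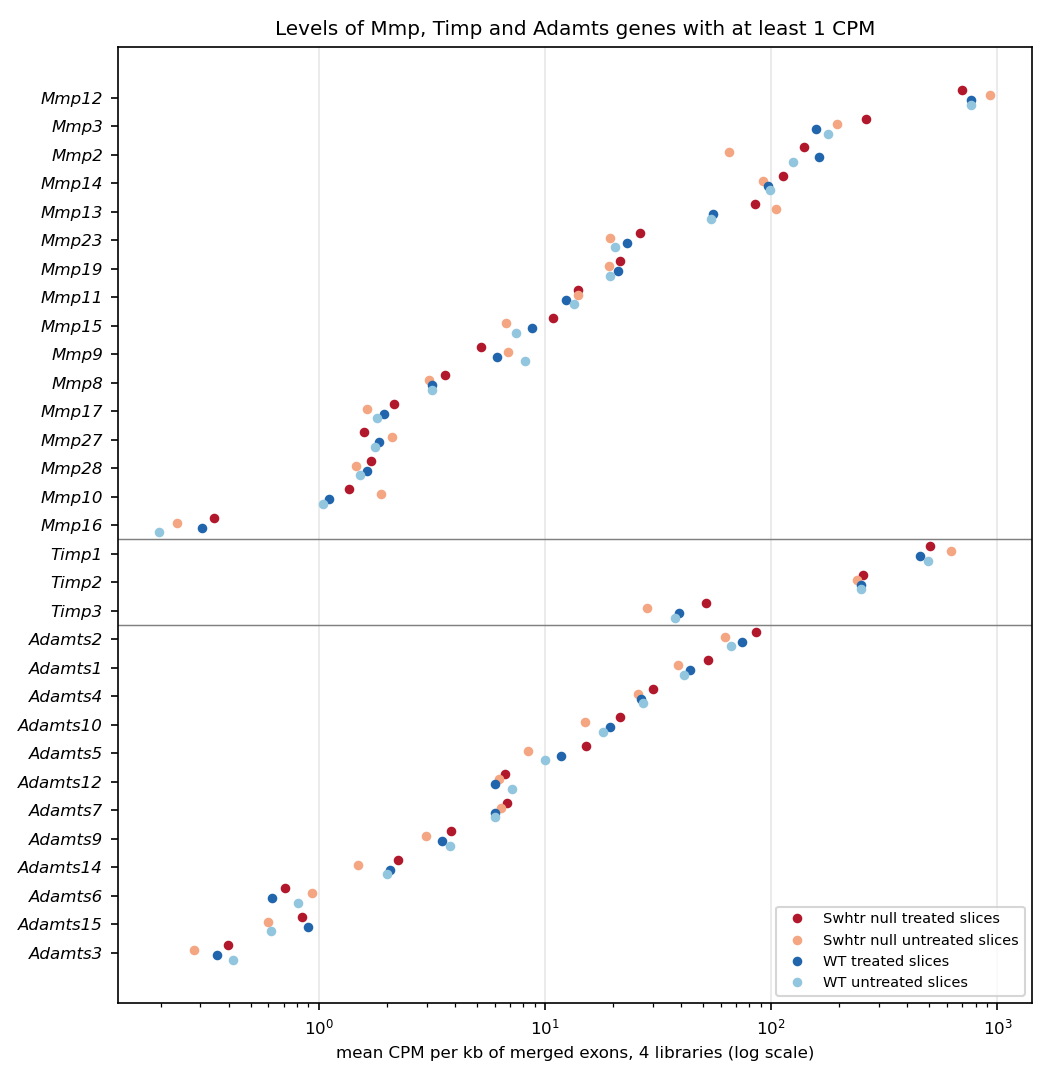
Mean CPM per kb of merged exons (log scale) in each of the 4 groups of 4 libraries, for the 31 members with at least 1 CPM, by family and in order of level. Mmp12 lies at the top with 789 CPM per kb over all libraries, and Mmp16 at the bottom of the Mmp genes with 0.271.

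The gelatinase Mmp2 was at 123 CPM per kb against 6.60 for Mmp9, the other gelatinase. The membrane-type enzyme Mmp14 was at 99.8 CPM per kb, with Mmp15, Mmp17 and Mmp16 at 8.47, 1.88 and 0.271. Mmp13, the main interstitial collagenase of the mouse, was at 74.9 CPM per kb and the neutrophil collagenase Mmp8 at 3.26. Adamts2, which removes the amino-terminal propeptide of fibrillar procollagens, was at 72.3 CPM per kb, against 1.95 for Adamts14 and 0.363 for Adamts3 of the same class. Adamts1 led the Adamts genes that cut the proteoglycans versican and aggrecan with 43.9 CPM per kb, ahead of Adamts4 with 27.5 and Adamts5 with 11.3. Adamts10, which is tied to fibrillin microfibrils, was at 18.6 CPM per kb. Mmp23 and Mmp19 were close to each other, at 22.4 and 20.3 CPM per kb, and so were Adamts12 and Adamts7, which cut cartilage oligomeric matrix protein, at 6.53 and 6.30.

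Among the inhibitors, Timp1, Timp2 and Timp3 stood at 518, 248 and 39.1 CPM per kb, and Timp4 at 0.0434. The last is known as the Timp of heart muscle. It was at 0.346 ± 0.175 CPM in treated Swhtr null, 0.241 ± 0.248 in untreated Swhtr null, 0.300 ± 0.112 in treated WT and 0.137 ± 0.0982 CPM in untreated WT slices (SD, n = 4 each). Timp3 shares 1733 of 8144 exon bases with Syn3 and Timp4 shares 90 bases with Syn2, each on the opposite strand. Other members also share bases with genes of the opposite strand, among them Adamts9 (1805 of 15048 bases) and Mmp19 (1001 of 3533). Mmp1b shares 157 of 1449 bases with Mmp12. How strand was handled in counting is not stated, so reads there cannot be told apart.

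The 11 members under 1 CPM had means of 0.0302 (Mmp21) to 0.926 CPM (Adamts17). None of the 11 was called in any comparison. Adamts13, the protease of von Willebrand factor, averaged 0.356 CPM. Mmp1b averaged 0.101 CPM and has a close copy in Mmp1a, so its reads may be split between the copies.

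Mmp12, Mmp13, Mmp1b, Mmp3, Mmp10, Mmp8 and Mmp27 lie side by side on chromosome 9 of GRCm38, from 7272514 (the start of Mmp13) to 7581885 (the end of Mmp27). Within this cluster the levels were far apart, with Mmp12 at 5708 CPM, Mmp3 at 358, Mmp13 at 200, Mmp8 at 7.89, Mmp27 at 4.04, Mmp10 at 2.32 and Mmp1b at 0.101 CPM over all libraries. Promoter windows of 300 bases, from 250 before to 50 after the annotated start, were available from RefSeq (GRCm38.p6) for 28 of the 42 members, in 30 windows. The AP-1 motif TGAGTCA or its reverse complement TGACTCA was present in 5 of these 30 windows, against 5.2% of all 32851 windows. All 5 windows belong to this cluster, while the windows of Mmp8 and Mmp27 and the upstream window of Mmp12 hold none. The TATA box letters TATAAA, searched on both strands, were in 8 of the 30 windows and in 13.6% of all. A match describes letters only, and no binding was measured. The 5 stretches are shown because their genes span the whole range of levels in the cluster; each runs from 100 bases before to 20 bases after the start, and capitals mark the AP-1 motif.
Mmp13 (chr9:7272414-7272533, plus strand, motif 35 bases before the start): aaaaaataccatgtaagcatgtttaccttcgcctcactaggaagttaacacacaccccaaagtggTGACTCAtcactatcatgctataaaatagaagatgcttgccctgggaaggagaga
Mmp12 (chr9:7347274-7347393, plus strand, motif 44 bases before the start): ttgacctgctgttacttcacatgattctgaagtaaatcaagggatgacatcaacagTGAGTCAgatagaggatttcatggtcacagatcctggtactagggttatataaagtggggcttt
Mmp3 (chr9:7445722-7445841, plus strand, motif 46 bases before the start): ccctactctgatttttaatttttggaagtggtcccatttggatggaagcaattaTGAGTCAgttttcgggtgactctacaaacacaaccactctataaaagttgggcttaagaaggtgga
Mmp10 (chr9:7502242-7502361, plus strand, motif 63 bases before the start): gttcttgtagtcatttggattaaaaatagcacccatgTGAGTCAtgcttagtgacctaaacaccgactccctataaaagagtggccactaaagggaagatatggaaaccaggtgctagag
Mmp1b (chr9:7388007-7388126, minus strand, motif 93 bases before the start): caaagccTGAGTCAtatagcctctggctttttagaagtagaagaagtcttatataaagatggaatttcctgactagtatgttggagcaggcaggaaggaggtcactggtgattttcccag

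The first comparison asks how Swhtr null slices responded to a week of low oxygen. In treated Swhtr null slices Mmp15 rose, and Adamts2 and Adamts10 were higher by less than the fold needed for a call. A gene was called where the adjusted p was under 0.05 and the log2 fold change lay beyond 0.58 in either direction (1.49-fold), by edgeR's quasi-likelihood test with Benjamini-Hochberg adjustment over all genes tested, which gives every adjusted p below unless another tool is named. By this rule 1 of 42 members was called, against 0.621% of all genes. An adjusted p under 0.05 with a higher level, at any fold, was reached by 3 members, against 0.909% of all genes.

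Mmp15, a membrane-type enzyme (chromosome 8, 95352268 to 95375080, plus strand), was the member called. It was at 49.8, 62.7, 59.4 and 63.2 CPM in treated Swhtr null slices, against 41.0, 38.3, 36.0 and 29.5 CPM in untreated Swhtr null slices. Every treated library lay above every untreated one. The mean was 58.8 ± 6.21 CPM in treated and 36.2 ± 4.92 CPM in untreated slices (SD, n = 4 each), and Mmp15 rose 1.62-fold (log2 fold change 0.70, standard error 0.14, adjusted p = 0.0195). With the replicate number as a block, the log2 fold change was 0.70 and the adjusted p = 0.105, so the call was lost. It was also lost without treated library 2 (adjusted p = 0.068), without untreated library 3 (adjusted p = 0.0708) and without untreated library 4 (adjusted p = 0.0796). The promoter stretch of Mmp15, shown because it is the member called, and that of Adamts2 below hold neither the AP-1 nor the TATA letters, and no capitals are used.
Mmp15 (chr8:95352196-95352315, plus strand): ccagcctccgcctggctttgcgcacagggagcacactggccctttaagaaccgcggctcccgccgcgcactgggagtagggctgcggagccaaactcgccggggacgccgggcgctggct
Adamts2 (chr11:50601985-50602104, plus strand): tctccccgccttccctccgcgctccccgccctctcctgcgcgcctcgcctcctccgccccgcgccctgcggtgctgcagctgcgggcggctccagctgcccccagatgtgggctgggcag

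Adamts2 was at 821, 933, 726 and 734 CPM in treated Swhtr null slices, against 604, 681, 563 and 478 CPM in untreated Swhtr null slices. The groups did not overlap, and library 2 was the highest of each. With an adjusted p = 0.0171, its log2 fold change of 0.47 (standard error 0.10) was below the fold needed for a call. The other procollagen N-proteinases pointed the same way. Adamts14 was at 12.7, 11.9, 8.38 and 13.4 CPM in treated against 7.58, 10.3, 6.88 and 6.15 CPM in untreated Swhtr null slices (log2 fold change 0.58, adjusted p = 0.114), with treated library 3 inside the untreated range. With the replicate block Adamts14 was called (log2 fold change 0.58, adjusted p = 0.00939). Adamts3 had a log2 fold change of 0.50 (adjusted p = 0.594) at a mean of 1.97 CPM.

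Adamts10 (chromosome 17, 33524204 to 33553782, plus strand) was at 194, 208, 161 and 149 CPM in treated Swhtr null slices, against 133, 133, 125 and 106 CPM in untreated Swhtr null slices. Here too all treated libraries were above all untreated ones, by 0.52 on the log2 scale (standard error 0.11, adjusted p = 0.023), which is under the fold threshold.

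Mmp2 showed the largest log2 fold change among the members with at least 1 CPM. It was at 560, 656, 327 and 346 CPM in treated Swhtr null slices, against 201, 327, 211 and 136 CPM in untreated Swhtr null slices. Untreated library 2 reached the level of treated library 3, so the groups met. The log2 fold change was 1.11 (2.16-fold, standard error 0.31, adjusted p = 0.0927), and within each replicate number the treated library was higher. Mmp2 was called with the replicate block (log2 fold change 1.11, adjusted p = 0.00139), by DESeq2 on all 16 libraries (adjusted p = 0.00959) and without untreated library 2 (log2 fold change 1.37, adjusted p = 0.0266). Mmp14, its activator, was at 580, 874, 716 and 508 CPM in treated against 549, 615, 525 and 496 CPM in untreated Swhtr null slices, which overlap (log2 fold change 0.29, adjusted p = 0.24). Mmp17, another membrane-type gene, had a log2 fold change of 0.40 (adjusted p = 0.258).

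Adamts5, an aggrecan and versican cutting enzyme, was at 170, 212, 122 and 154 CPM in treated Swhtr null slices, against 85.1, 140, 72.3 and 64.8 CPM in untreated Swhtr null slices. Only untreated library 2 lay inside the treated range (log2 fold change 0.86, standard error 0.26, adjusted p = 0.114). Adamts5 was called with the replicate block (log2 fold change 0.90, adjusted p = 2.13e-05), by DESeq2 on all 16 libraries (adjusted p = 0.00512) and without untreated library 2 (adjusted p = 0.0128). Its neighbour on chromosome 16 and relative in function, Adamts1, was at 233, 384, 244 and 249 CPM in treated against 207, 258, 188 and 166 CPM in untreated Swhtr null slices (log2 fold change 0.44, adjusted p = 0.156). In treated slices library 2 stood apart from the other 3. Adamts9 (log2 fold change 0.37, adjusted p = 0.225) and Adamts15 (0.50, adjusted p = 0.206) were higher by similar amounts, without passing the test.

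Timp3 was at 514, 549, 316 and 297 CPM in treated Swhtr null slices, against 222, 374, 170 and 156 CPM in untreated Swhtr null slices. Libraries 1 and 2 were the higher ones in each group, and the ranges overlapped (log2 fold change 0.86, standard error 0.34, adjusted p = 0.228). With the replicate block Timp3 was called (log2 fold change 0.90, adjusted p = 0.0483). Timp2 held the narrowest range of the inhibitors, at 1056, 975, 985 and 943 CPM in treated against 965, 999, 854 and 909 CPM in untreated Swhtr null slices. The 95% interval of its log2 fold change ran from -0.06 to 0.23 around 0.09. Timp1 was at 396, 518, 423 and 443 CPM in treated against 400, 959, 297 and 559 CPM in untreated Swhtr null slices (log2 fold change -0.32, adjusted p = 0.648), with untreated library 2 the highest of all 16.

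**Figure D2:**
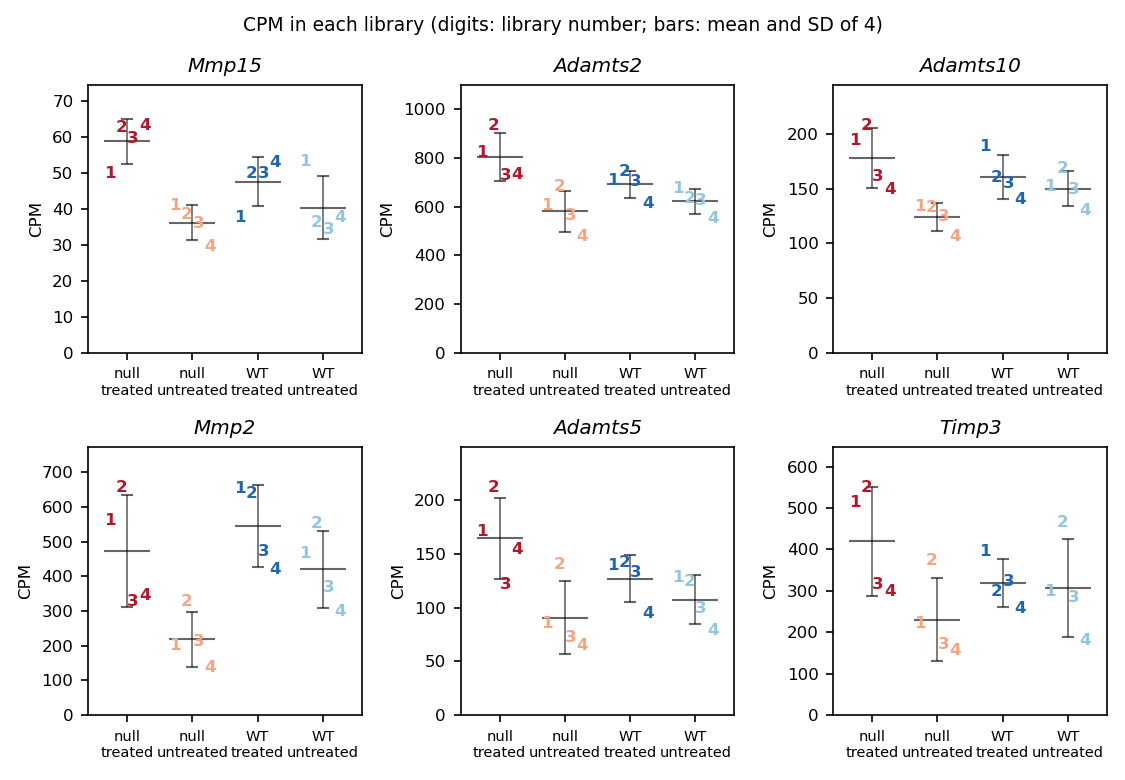
CPM in each library for Mmp15, Adamts2, Adamts10, Mmp2, Adamts5 and Timp3, in treated and untreated Swhtr null and treated and untreated WT slices. Digits are library numbers, and bars give mean and SD (n = 4 libraries). The treated Swhtr null libraries lie above the untreated ones in the upper panels (49.8 CPM or more against 41.0 CPM or less for Mmp15), and the ranges meet in the lower panels.

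Over the 31 members with at least 1 CPM, 14 had a higher level at an unadjusted p under 0.05, against 12.8% of all genes of that level, and 1 (Mmp12) a lower level, against 11.4%. Treated and untreated libraries lay fully apart for 3 higher members (Mmp15, Adamts2 and Adamts10), against 5.19% of genes, and for 1 lower member (Mmp12), against 5.13%. The median log2 fold change of the 31 was 0.29, with 23 above 0, and that of all 14229 genes was 0.00, with 50.6% above 0. By family, the medians were 0.45 for 12 Adamts genes, of which 11 were above 0, 0.22 for 16 Mmp genes and 0.09 for 3 Timp genes. Mmp23 (log2 fold change 0.45, adjusted p = 0.203) and Mmp19 (0.15, adjusted p = 0.297) were also among the 14. With the replicate number as a block, 4 members (Mmp2, Timp3, Adamts5 and Adamts14) and 616 of all genes were called, in place of 1 and 155.

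Mmp12 was at 4255, 4121, 5962 and 5833 CPM in treated Swhtr null slices, against 6078, 6830, 6085 and 7963 CPM in untreated Swhtr null slices. The groups did not overlap, although treated libraries 3 and 4 came close to untreated libraries 1 and 3. The log2 fold change was -0.42 (standard error 0.18, adjusted p = 0.266), which does not pass the test. In bulk tissue, fewer cells of a type and less RNA per cell cannot be told apart. Macrophage markers were lower as well, as 15 of 15 had a log2 fold change below 0 (median -0.53). At an unadjusted p under 0.05, 6 were lower, against 11.4% of genes of at least 1 CPM. By the rule for a call, 0 were called, against 0.621% of all genes. The 15 markers summed to 8002, 4225, 10663 and 8628 CPM in treated against 11710, 8408, 11216 and 13629 CPM in untreated Swhtr null slices. Untreated library 2 held the lowest marker sum of its group, but its Mmp12 level lay above those of untreated libraries 1 and 3. The part of macrophages in the lower Mmp12 level was not tested.

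The higher levels of the other genes also came with marker changes. All 9 fibroblast markers had a log2 fold change above 0 in treated Swhtr null slices, with a median of 0.32 and 1 called (Dpt), and summed to 25339 to 33516 CPM, against 22988 to 27815 CPM in untreated Swhtr null slices. All 8 smooth muscle and pericyte markers were above 0 as well (median 0.49, 2 higher at an unadjusted p under 0.05, 0 called), with sums of 463 to 707 CPM in treated against 331 to 456 CPM in untreated Swhtr null slices. Of 7 endothelial markers, 6 were above 0 (median 0.30, 3 higher at an unadjusted p under 0.05, 0 called). All 5 mast cell markers tested were above 0 (median 0.72, 0 called), 4 of them under 1 CPM. Of 6 mesothelial markers, 4 were above 0 and 2 below, with 1 called lower. Neutrophil markers had 3 above 0 and 5 below, and T and B cell markers 2 and 2. The 10 heart muscle markers had a median log2 fold change of 2.76, with 7 higher at an unadjusted p under 0.05 and 0 called, at the low sums given above. The part of these cells in the protease and Timp3 levels was not tested.

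**Figure D3:**
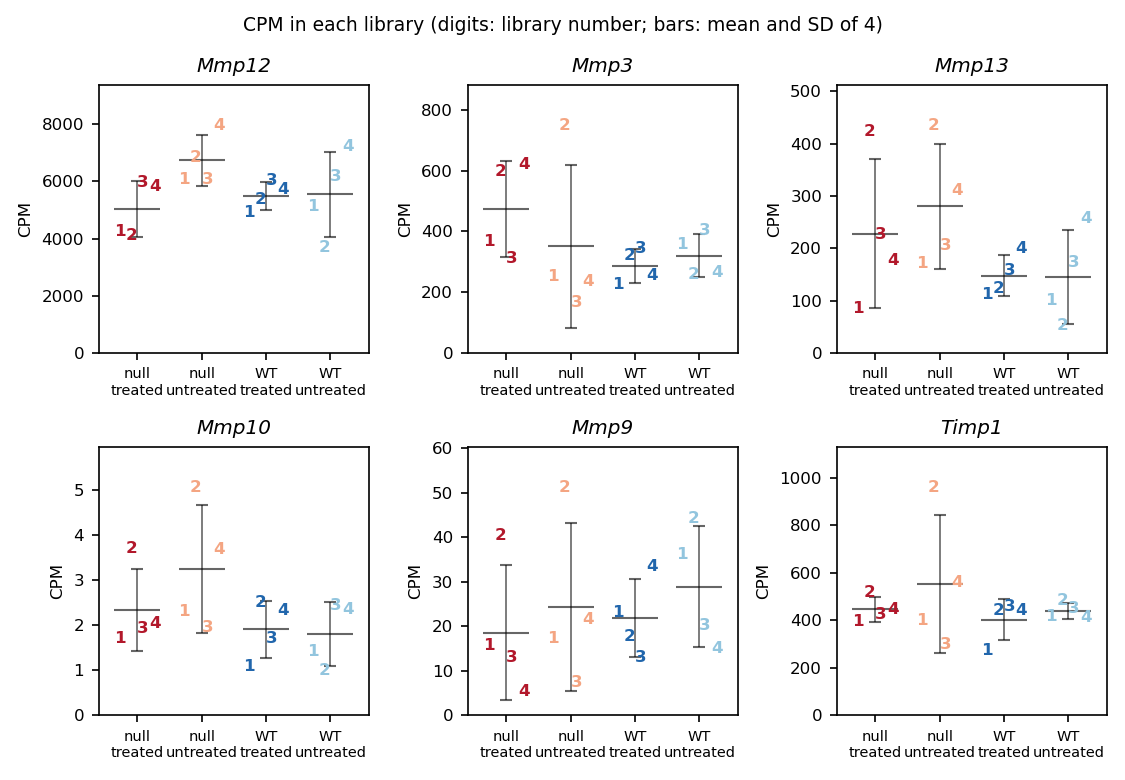
CPM in each library for the secreted enzymes Mmp12, Mmp3, Mmp13, Mmp10 and Mmp9 and the inhibitor Timp1, in treated and untreated Swhtr null and treated and untreated WT slices. Digits are library numbers, and bars give mean and SD (n = 4 libraries). Untreated Swhtr null library 2 is the highest for Mmp3 (750 CPM), Mmp13 (435), Mmp10 (5.06), Mmp9 (51.1) and Timp1 (959).

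The inducible secreted enzymes varied widely between Swhtr null slices of a group. Mmp3 was at 365, 597, 310 and 621 CPM in treated Swhtr null slices, against 251, 750, 166 and 236 CPM in untreated Swhtr null slices. Untreated library 2 decided this comparison, as the log2 fold change was 0.43 with it (adjusted p = 0.664) and 1.12 without it (adjusted p = 0.0421). Mmp13 was at 85.6, 423, 226 and 177 CPM in treated against 171, 435, 204 and 310 CPM in untreated Swhtr null slices, so library 2 was the highest of each group (log2 fold change -0.30, standard error 0.53, adjusted p = 0.843). Mmp10, stromelysin-2, was at 1.69, 3.70, 1.93 and 2.03 CPM in treated and 2.31, 5.06, 1.95 and 3.69 CPM in untreated Swhtr null slices. Mmp9, described for its spread after its values were seen, was at 15.7, 40.3, 13.0 and 5.25 CPM in treated against 17.2, 51.1, 7.28 and 21.5 CPM in untreated Swhtr null slices. Its coefficient of variation was 81.6% in treated and 77.7% in untreated Swhtr null slices, against 4.81% and 6.86% for Timp2.

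The same treatment was then compared in WT slices. No member was called by edgeR, DESeq2 or limma (0 of 42), against 0% of all genes by edgeR, where DESeq2 on all 16 libraries called 9 genes and limma 3. At an unadjusted p under 0.05, Adamts15 was higher, against 2.57% of genes of at least 1 CPM, and Adamts12 lower, against 2.27%. Libraries did not overlap for Adamts15 among higher genes, against 2.38%, and for Adamts12 and Adamts6 among lower genes, against 2.05%. Adamts12 was at 62.9, 69.1, 65.8 and 66.0 CPM in treated WT slices, against 76.8, 80.3, 78.1 and 77.7 CPM in untreated WT slices. Both groups were tight and apart, with -0.25 on the log2 scale (standard error 0.08, adjusted p = 0.999). DESeq2 on the WT libraries alone gave Adamts12 an adjusted p = 0.00454 at the same -0.25, under the fold threshold, and over its 24 alternatives the adjusted p ran from 0.00454 to 1. Adamts15, which cuts versican, was at 8.76, 11.5, 8.64 and 8.17 CPM in treated against 6.82, 7.04, 6.35 and 5.25 CPM in untreated WT slices (log2 fold change 0.54, adjusted p = 0.999). Adamts6 was at 5.55, 4.48, 4.55 and 4.80 CPM in treated against 5.82, 6.36, 6.21 and 6.84 CPM in untreated WT slices (log2 fold change -0.38, adjusted p = 0.999).

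The genes that led in Swhtr null slices had smaller estimates in WT slices. Mmp15 was at 37.6, 49.9, 49.9 and 52.8 CPM in treated WT slices, against 53.3, 36.2, 34.2 and 37.7 CPM in untreated WT slices (log2 fold change 0.24, adjusted p = 0.999). Untreated library 1 was the highest of all 8. Mmp2 was at 654, 639, 471 and 421 CPM in treated against 465, 553, 367 and 299 CPM in untreated WT slices (log2 fold change 0.38, adjusted p = 0.999). Adamts2 was at 705, 743, 705 and 611 CPM in treated against 676, 635, 626 and 553 CPM in untreated WT slices (log2 fold change 0.15). Timp3 was at 396, 298, 322 and 257 CPM in treated against 297, 466, 283 and 179 CPM in untreated WT slices (log2 fold change 0.05, 95% interval -0.68 to 0.79). The median log2 fold change of the 31 members was 0.05 in WT slices, and that of all genes of at least 1 CPM 0.01.

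**Figure D4:**
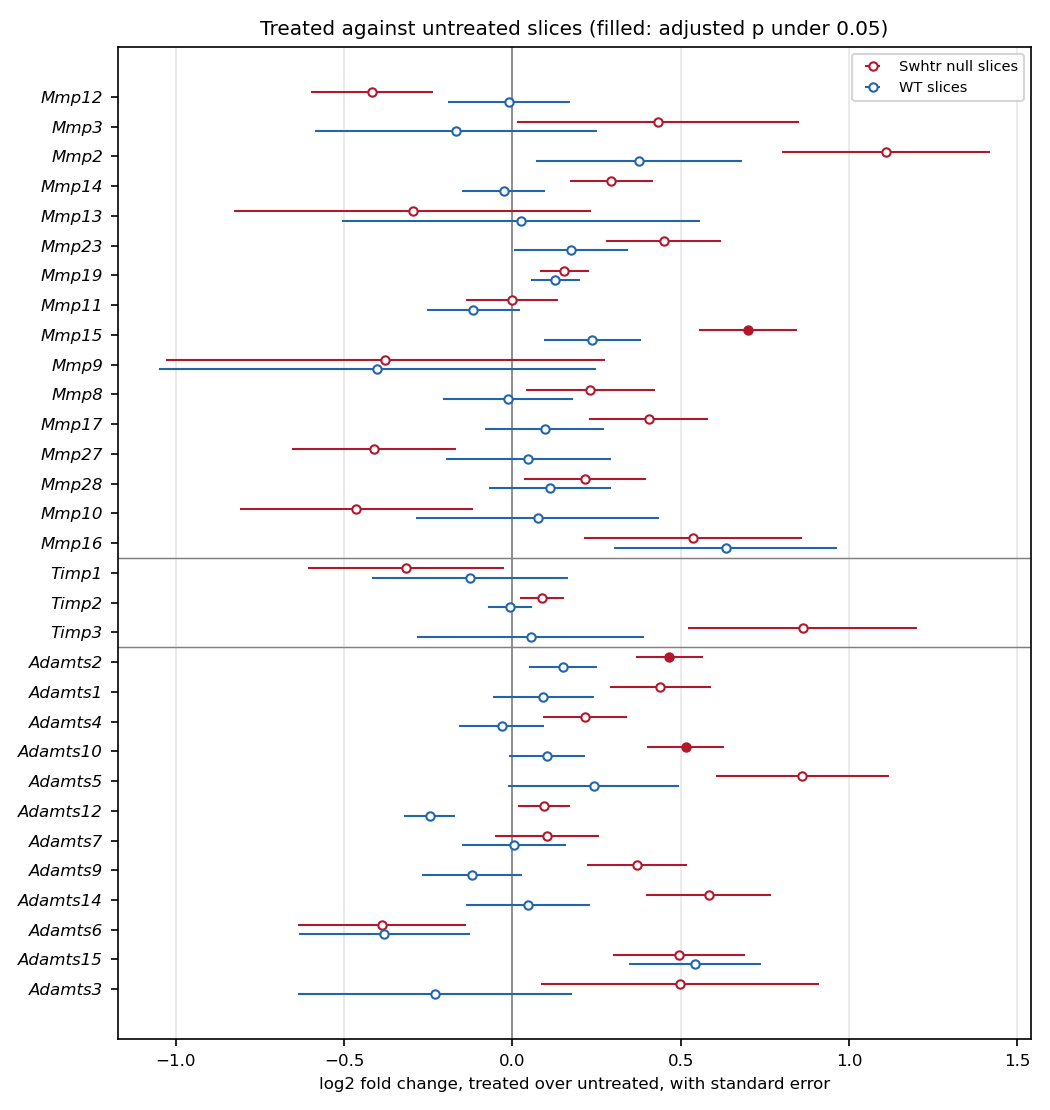
Log2 fold change of treated over untreated slices with its standard error for the 31 members with at least 1 CPM, in Swhtr null and WT slices, by family. Filled points have an adjusted p under 0.05, which Mmp15 (0.70), Adamts2 (0.47) and Adamts10 (0.52) reached in Swhtr null slices and no member in WT slices.

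Whether the responses differ was tested as the difference of the log2 fold changes, Swhtr null minus WT. No member was called (0 of 42, against 0% of all genes) by edgeR, DESeq2 on all 16 libraries or limma. Among members of at least 1 CPM, 5 had a more positive response in Swhtr null slices at an unadjusted p under 0.05 (Adamts2, Adamts10, Adamts12, Adamts9 and Mmp15), against 3.93% of genes, and 0 a more negative one, against 4.29%. For Mmp15 the difference was 0.46 (95% interval 0.02 to 0.91, adjusted p = 0.715), and for Adamts12 it was 0.34 (standard error 0.11, adjusted p = 0.715). Adamts10 differed by 0.41 (95% interval 0.06 to 0.76, adjusted p = 0.715). For Mmp2 the difference was 0.73 with an interval of -0.21 to 1.67, and for Timp3 it was 0.81 with an interval of -0.23 to 1.85. By deviations from the group mean, the replicate numbers pair the Swhtr null libraries only in part. Treated library 3 correlated more with untreated library 4 (0.33) than with untreated library 3 (0.26). Same-numbered WT libraries showed no clear pairing. In a fit blocked on replicate number within each genotype, WT included, Adamts5 was called (difference 0.65, adjusted p = 0.0329), and 52 of all genes were called in place of 0. Adamts10 then differed by 0.41 (adjusted p = 0.0268), under the fold threshold, and Mmp15 by 0.45 (adjusted p = 0.685).

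The genotypes were also compared within each treatment. These comparisons share their libraries with those above. In treated slices 0 of 42 members were called by edgeR, DESeq2 or limma, against 0.0921% of all genes by edgeR. Adamts2 and Mmp15 were higher at an unadjusted p under 0.05, against 3.18% of genes of at least 1 CPM, and 0 members lower, against 3.87%. No member's libraries were apart in either direction, where 2.18% of genes were higher and 2.94% lower. For Mmp15, whose values are given above, Swhtr null slices were higher by 0.31 on the log2 scale (standard error 0.14, adjusted p = 0.767), and for Adamts2 by 0.22 (standard error 0.10, adjusted p = 0.767). The median log2 fold change of Swhtr null over WT was 0.17 for the 31 members, with 26 above 0, and 0.00 for all genes. Mmp12 differed by -0.13 on the log2 scale (standard error 0.18, adjusted p = 0.907), with overlapping libraries. Macrophage markers again stood lower, 15 of 15 with a median of -0.47 and 0 called, at 4225 to 10663 CPM in treated Swhtr null against 9762 to 11285 CPM in treated WT slices. Their part was not tested.

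In untreated slices 0 of 42 members were called by edgeR, DESeq2 or limma, against 0.1% of all genes by edgeR. At an unadjusted p under 0.05, 5 members were lower (Mmp2, Adamts10, Adamts12, Adamts9 and Adamts14), against 2.96% of genes of at least 1 CPM, and 1 higher (Mmp10), against 3.01%. Libraries were apart for 0 members in either direction, against 1.47% of genes higher and 1.64% lower. Mmp2 was at 201, 327, 211 and 136 CPM in untreated Swhtr null slices, against 465, 553, 367 and 299 CPM in untreated WT slices. Swhtr null library 2 was the only one to reach into the WT range (log2 fold change -0.94, standard error 0.31, adjusted p = 0.903). Adamts9 was at 45.1, 57.0, 40.3 and 36.5 CPM in untreated Swhtr null slices, against 64.8, 63.5, 56.0 and 45.1 CPM in untreated WT slices (log2 fold change -0.36, adjusted p = 0.903). Mmp10 differed by 0.84 on the log2 scale (standard error 0.36, adjusted p = 0.903), at 3.25 ± 1.42 CPM in untreated Swhtr null and 1.80 ± 0.707 CPM in untreated WT slices (SD, n = 4 each). Mmp13 averaged 280 ± 119 CPM in untreated Swhtr null and 145 ± 89.7 CPM in untreated WT slices (SD, n = 4 each), with a log2 fold change of 0.95 and a standard error of 0.53 (adjusted p = 0.907). The median of the 31 members was -0.07, with 10 above 0. Adamts10 and the low member Mmp25 lie on chromosome 17, which also carries Swhtr, and in a comparison of genotypes the allele and the DNA linked to it cannot be told apart.

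**Figure D5:**
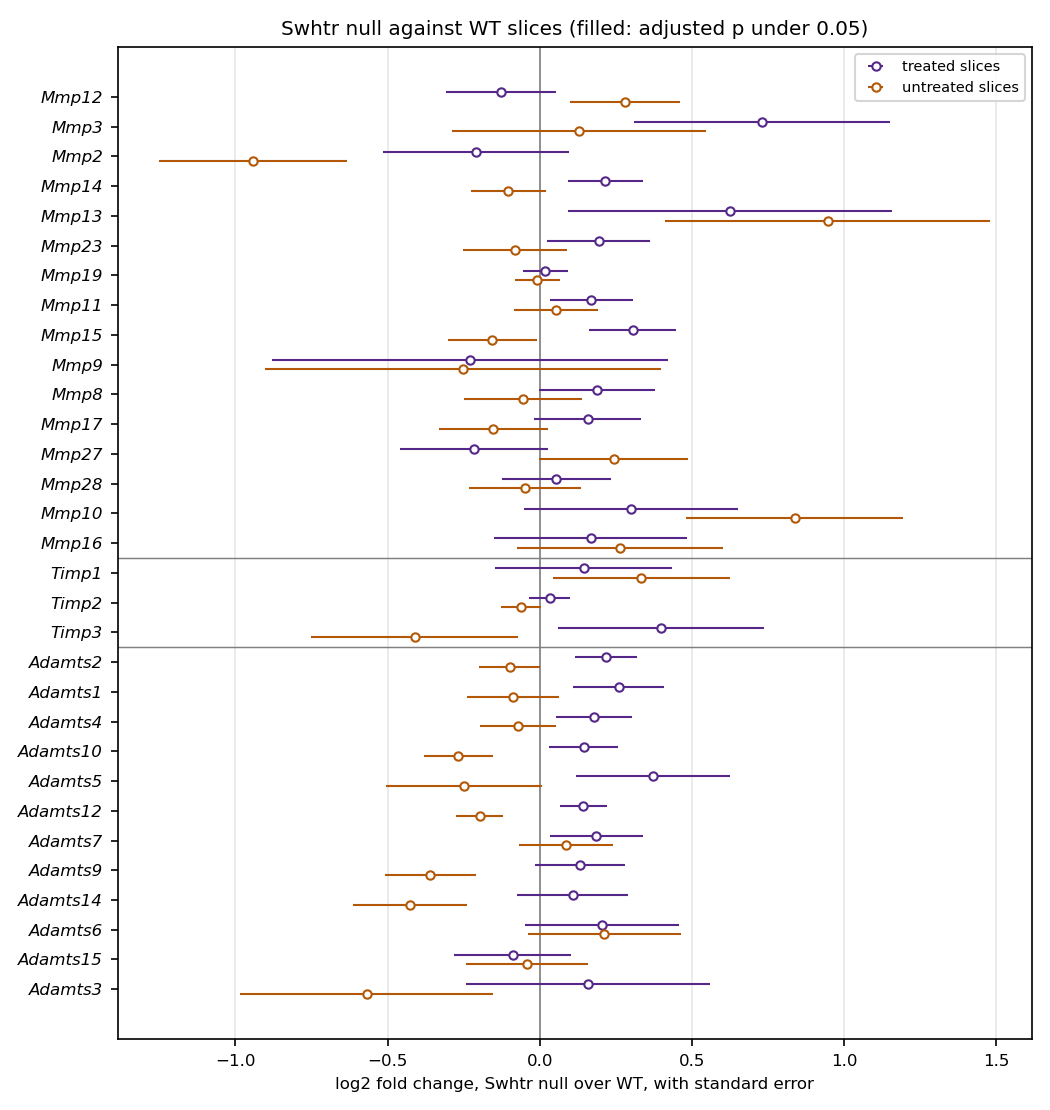
Log2 fold change of Swhtr null over WT with its standard error for the 31 members with at least 1 CPM, in treated and in untreated slices, by family. No point is filled, as no adjusted p was under 0.05. Mmp2 in untreated slices (-0.94) and Mmp13 in untreated slices (0.95) lie farthest from 0.

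Genes that activate, inhibit or serve the proteases were counted from written lists. Of 31 genes for activation, uptake and control of matrix proteases, 29 were tested (median log2 fold change 0.23 in treated Swhtr null slices). By unadjusted p under 0.05, 7 were higher and 2 lower, against 12.8% and 11.4% of genes of at least 1 CPM. By the rule for a call, 1 was higher and 0 lower, against 0.621% of all genes called. It was Serpine2, an inhibitor of serine proteases such as plasminogen activators, at 284 ± 33.7 CPM in treated and 187 ± 36.2 CPM in untreated Swhtr null slices (SD, n = 4 each, log2 fold change 0.60, adjusted p = 0.0376). Bsg, the surface inducer of Mmps also known as EMMPRIN, was at 914 ± 84.9 CPM in treated and 1154 ± 98.7 CPM in untreated Swhtr null slices (log2 fold change -0.34, adjusted p = 0.0212), under the fold threshold. Mrc2, a collagen uptake receptor, had a log2 fold change of 0.28 (adjusted p = 0.0834) in Swhtr null slices.

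Of 16 ADAM and other surface or secreted proteases, 0 were called (median 0.04). By unadjusted p under 0.05, 4 were higher and 0 lower, against 12.8% and 11.4% of genes of at least 1 CPM, a level not asked of the listed genes. The smallest p belonged to Adam19 (log2 fold change 0.31, adjusted p = 0.0492), followed by Adam12 (0.52, adjusted p = 0.0886). Of 16 matrix substrates, 15 had a log2 fold change above 0 (median 0.38), and by unadjusted p under 0.05 9 were higher and 0 lower, against the same shares. By the rule for a call, 1 was higher and 0 lower, against 0.621% of all genes called. The gene called was Vcan, versican, which Adamts1, Adamts5 and their relatives cut. Vcan was at 323, 287, 288 and 286 CPM in treated against 220, 219, 165 and 161 CPM in untreated Swhtr null slices (log2 fold change 0.63, adjusted p = 0.00452). Its groups were far apart, and in WT slices its log2 fold change was 0.35 (adjusted p = 0.999). The basement membrane collagens Col4a1 (0.48, adjusted p = 0.0154) and Col4a2 (0.44, adjusted p = 0.011) were higher below the fold threshold, and Col3a1 had a log2 fold change of 0.32 (adjusted p = 0.111).

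Of 21 cytokines and transcription factors that act on Mmp genes, 4 were higher and 4 lower in treated Swhtr null slices by unadjusted p under 0.05 (median -0.02). The shares among genes of at least 1 CPM were 12.8% higher and 11.4% lower. By the rule for a call, 1 was higher and 0 lower, against 0.621% of all genes called. It was the AP-1 subunit gene Fosb, at 5.71 ± 0.857 CPM in treated and 2.03 ± 0.862 CPM in untreated Swhtr null slices (SD, n = 4 each, log2 fold change 1.49, adjusted p = 0.0254). In WT slices Fosb averaged 7.39 ± 3.55 CPM in treated and 2.06 ± 0.319 CPM in untreated slices (SD, n = 4 each, log2 fold change 1.84, adjusted p = 0.195). Among other AP-1 genes, Junb had a log2 fold change of -0.34 (adjusted p = 0.0332) and Jund one of -0.31 (adjusted p = 0.0925). Egr1, an immediate early gene, had a log2 fold change of 1.09 (adjusted p = 0.051). By edgeR, none of the genes in the 4 lists was called in WT slices, between the genotypes or for the difference of the responses. With an unadjusted p under 0.05 in WT slices, 2 genes of the 29 in the activation list stood higher and 2 lower, as did 3 and 0 of the 16 substrates and 3 and 1 of the 21 cytokines and transcription factors. Among all genes of at least 1 CPM, a level not asked of the listed genes, these shares were 2.57% higher and 2.27% lower.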

How the data were processed

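RNA of 16 heart slice libraries was sequenced as paired reads of 150 bases. The authors aligned them with STAR to mm10 and counted reads per Ensembl gene with GenomicAlignments. The deposited values are raw counts of 55487 genes, and 55227 IDs were found in GENCODE M21 (GRCm38), which gave symbols, exon lengths and positions. The labels name a TruSeq mRNA kit and the methods Ribo-Minus and ScriptSeq, and strand use in counting is not given in the sources used here.

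Counts were analysed in R 4.3.3. Genes reaching 10 counts in total were scaled by TMM and fitted with 4 group means (12 residual degrees of freedom) by the robust quasi-likelihood test of edgeR 4.0.16. CPM levels and adjusted p-values over 24971 genes come from this fit. Standard errors were derived from its F statistic, and intervals (95%) from these errors with 12 degrees of freedom. An interval and the unadjusted p of the same gene can therefore disagree. No pair of libraries was a duplicate (lowest chi-square per degree of freedom 6.12 over 120 pairs). Scripts were tested on simulated data.

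Alternatives were DESeq2 1.42.0, limma 3.58.1, other scaling, filters and fold limits, a replicate block and each library left out. Deviations of same-numbered treated and untreated Swhtr null libraries had correlations of 0.15, 0.59, 0.26 and 0.40, by the data and not by any label. Treated library 3 correlated more with untreated library 4 (0.33) than with its own number, so the pairing is not certain. Blocked values stand beside that comparison as an alternative. In WT slices the correlations of same-numbered libraries were -0.11, -0.08, 0.16 and 0.32.

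Members named are those with an adjusted p under 0.05, or of at least 1 CPM with an unadjusted p under 0.05 or without overlap of libraries, in any comparison, the highest per kb of each role class, and all Timp genes. From the lists of related genes come those called and up to 4 with the smallest p in Swhtr null slices. A gene this rule would name is not reported here. Genes outside this rule are given to place a level or were chosen after their values were seen. The members, lists and tests were chosen with earlier results of these data known.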

Additional observations from a re-analysis of the deposited data

Results flagged for a closer look

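Of 96 groups of 4 libraries examined (24 named members in 4 groups), 6 held a library far from the other 3 by Dixon's criterion (the gap to the nearest library over the range of the 4), and chance gives about 5%, or 4.8 of 96. In treated Swhtr null slices, library 2 stood high for Adamts1 (384 CPM, against 233 to 249 in the others), Adamts9 (70.0 CPM, against 53.2 to 54.4) and Mmp10 (3.70 CPM, against 1.69 to 2.03). In untreated Swhtr null slices, library 2 stood high for Mmp19 (79.0 CPM, against 64.0 to 64.9) and Mmp3 (750 CPM, against 166 to 251). Timp1 was low in library 1 of treated WT slices (271 CPM, against 442 to 456). Treated and untreated Swhtr null library 2 also had the lowest macrophage marker sums of their groups (4225 and 8408 CPM), and the part of this in the values above was not tested.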

How the results depend on the processing

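The 1 member called in Swhtr null slices (Mmp15) became 3 under DESeq2, fitted to all libraries or to those compared (Adamts5, Mmp2 and Mmp15) and 3 without the fold threshold (with Adamts2 and Adamts10). It became 4 with the replicate block, without Mmp15, and 0 in edgeR on the libraries compared (Mmp15 adjusted p = 0.0509). Leaving out single libraries gave 0 to 6, with 0 without treated library 2 or untreated library 3 or 4, and 6 without untreated library 2. In this order, these fits called 80, 49, 22 and 575 of all genes, in place of 155. The count of members stayed at 1 under limma, DESeq2 size factors, filtering by expression and no filter. Mmp15 kept an adjusted p under 0.05 in 19 of 24 alternatives (adjusted p = 5.95e-05 to 0.105), Adamts2 in 19 (5.95e-06 to 0.123) and Adamts10 in 18 (5.53e-06 to 0.103). These alternatives include the fits without single WT libraries, which are not among the libraries compared.

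Over all genes, 155 calls in Swhtr null slices became 464 under DESeq2, 316 under DESeq2 on the libraries compared, 6 in edgeR on the libraries compared, 616 with the block, 544 without the fold threshold and 22 to 575 without single libraries, and the cause was not tested. The 0 calls in WT slices became 9 and 30 under the same DESeq2 fits, and 19 with the block.

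By the data, the numbers do not clearly pair the WT libraries or those of different genotypes. For the difference of the responses, the block takes same-numbered libraries within each genotype as pairs, WT libraries included. Between genotypes it pairs same-numbered Swhtr null and WT libraries, which came from different mice. The block gave 1 member for untreated slices between genotypes (Mmp2, log2 fold change -0.96), with 32 of all genes called in place of 25. It gave 1 for the difference of the responses (Adamts5, 0.65), where 52 of all genes were called in place of 0. It gave 0 in the remaining comparisons, as leaving out any library did (0 to 0 outside the Swhtr null response). Another scaling shifted all genes by a median of at most 0.01 on the log2 scale. No called log2 fold change reversed.

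Leaving out a library weakened the call of Mmp15 3 times in 16. Shared mice, the kit and the strand of counting could not be checked.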
